A study of Anas platyrhynchos with 6 samples.

Results

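Transcripts of 2 sterol genes, INSIG1 (XM_005026017.2) and NSDHL (XM_013092449.1), were followed across 6 ovary libraries of Jinding ducks, a laying breed of the domestic duck. They were chosen by transcript identifier and are 2 of 41952 transcripts measured, and 1 transcript of each gene was recognised in the tables. Half-sib ducks of 340 days, kept under the same feeding, were sorted by daily egg records into a high group, laying at a rate above 99%, and a low group, laying below 85%, with 3 libraries in each. Libraries are called high 1 to 3 and low 1 to 3. Abundance is in FPKM, a read-out corrected for how long a transcript is and how large its library is, and the unit is inferred from the values. Nothing in the labels says that each library is a different duck, so every p-value measures the spread between these libraries, part of which may be technical.

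Animal cells hold their cholesterol steady through SREBP, a transcription factor kept in the membrane of the endoplasmic reticulum. When sterols are plentiful, the membrane protein INSIG1 retains SREBP there with its escort SCAP, and it also leads HMG-CoA reductase, the rate-limiting enzyme of the pathway, to degradation. INSIG1 is itself switched on by SREBP in mammals, so its mRNA is often read as a gauge of sterol demand. NSDHL is an enzyme of the late pathway, a dehydrogenase that helps to strip methyl groups from the sterol ring after lanosterol. In the ovary, cholesterol is the substrate of steroid hormones, while the lipid of a bird's yolk arrives largely in lipoproteins made by the liver.

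Summed FPKM per library lay between 569606 and 639135, and read depth is unknown. Genes that define an ovary were present in all 6: the egg-coat gene ZP2 lay between 179 and 517 FPKM and the oocyte growth factor GDF9 between 49.4 and 83.8 FPKM. Low 1 and low 3 were the least alike pair, with a Pearson correlation across tested transcripts of 0.899 against 0.936 to 0.960 for every other pair.

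INSIG1 was an abundant transcript at a nearly even level in the high group and at a scattered level in the low group. It stood at 63.8, 56.7 and 66.4 FPKM in high 1, 2 and 3, and at 73.8, 58.7 and 35.7 FPKM in low 1, 2 and 3. The low group thus held both the highest and the lowest of the 6 values, and the high values fell between them. Means were 62.3 ± 5.04 FPKM in the high group and 56.1 ± 19.2 FPKM in the low group (SD, n = 3 each). Within each library INSIG1 ranked at the 84.5 to 91.9 percentile of 19790 tested transcripts.

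No difference between the groups was detected for INSIG1. The log2 difference of log2(FPKM + 1), high minus low, was 0.21 (SE 0.258, 95% interval -0.39 to 0.81, limma adjusted p = 0.9998). The limma interval does not reach 1 in either direction, which on this scale is a change by a factor of 2. It takes 1 spread for both groups, partly from other transcripts, though the SDs were 0.117 in high and 0.526 in low. A change by a factor of 2 is therefore not excluded. An exact permutation test (two-sided) over the 20 ways to label the libraries gave p = 0.8, where the smallest possible value is 0.1. The sign rested on low 3: without that library the log2 difference was -0.081.

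NSDHL was less abundant and varied far more between libraries. It stood at 8.40, 10.8 and 15.7 FPKM in high 1, 2 and 3, and at 4.42, 15.9 and 1.86 FPKM in low 1, 2 and 3. Low 2 matched high 3 at the top, and low 1 and low 3 lay beneath every high library. From the lowest to the highest library the level differed 8.55-fold, against 2.07-fold for INSIG1. Means were 11.6 ± 3.74 FPKM in the high group and 7.41 ± 7.50 FPKM in the low group (SD, n = 3 each). The percentile of NSDHL among tested transcripts ran from 18.2 in low 3 to 66.2 in low 2.

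For NSDHL the log2 difference, high minus low, was 0.94 (SE 0.600, 95% interval -0.46 to 2.34, limma adjusted p = 0.9998), and the interval holds both 0 and values past 1, a factor of 2. The exact permutation test gave p = 0.4. The size depended on single libraries, being 1.64 without low 2 and 0.36 without low 3, and the sign turned to -0.41 with array weights, whose estimation stopped before it converged. Of the 2 transcripts, 0 were called by limma at an adjusted p below 0.05 and 0 had an unadjusted p below 0.05, against backgrounds of 0.00505% and 3.51% of tested transcripts. The groups overlapped for both, where 8.54% of tested transcripts had groups that do not overlap.

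**Figure D1:**
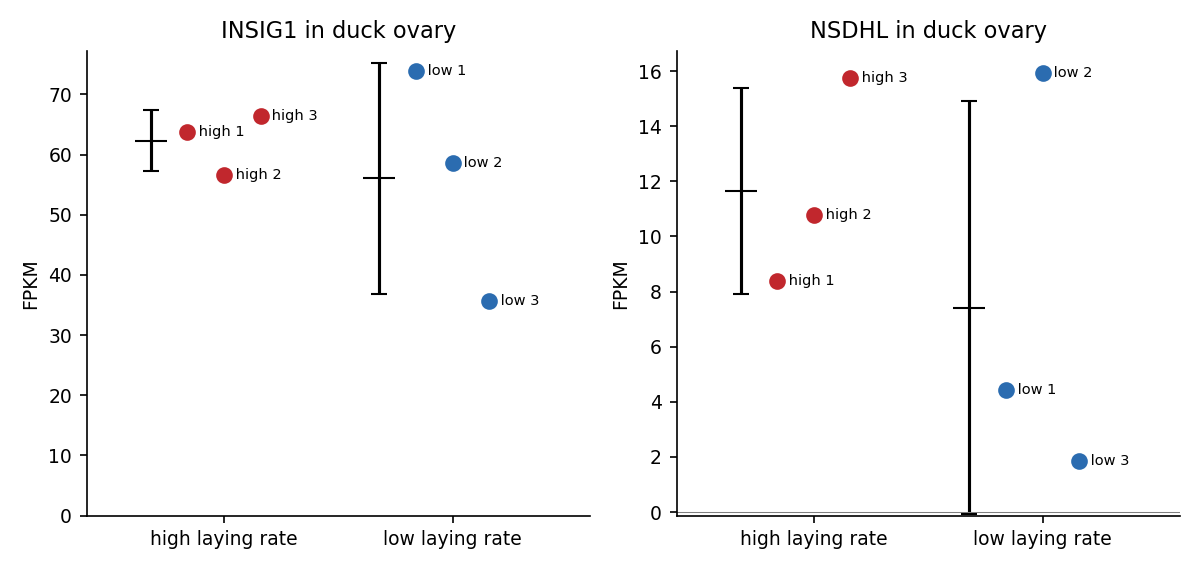
FPKM of INSIG1 (left) and NSDHL (right) in each ovary library, one point per library, with the group mean and SD as a black bar beside the points. The high values lie between the extremes of the low group for both genes, and the low group is spread from 35.7 to 73.8 FPKM for INSIG1 and from 1.86 to 15.9 FPKM for NSDHL.

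Both transcripts were more variable among the low libraries than among the high libraries, although 3 libraries a group could not establish the difference. The coefficient of variation of INSIG1 was 8.09% in the high group and 34.3% in the low group. For NSDHL it was 32.1% and 101%. On the log2(FPKM + 1) scale the SD of INSIG1 was 0.117 in high and 0.526 in low, a difference of -0.41 (permutation test of the SDs, two-sided, p = 0.2). The SD of NSDHL was 0.419 in high and 1.30 in low, a difference of -0.88 (same permutation test, p = 0.3). The test compared all 20 labelings after each group mean was removed, so its p-values are approximate. The smallest p it can give is 0.1. With low 3 left out the difference for INSIG1 shrank to -0.11, and with low 2 left out that for NSDHL shrank to -0.23.

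A wider low group was common in these libraries and not peculiar to the sterol genes. Among 3234 tested transcripts whose mean lay within a factor of 2 of INSIG1, 73.8% had a larger SD in the low group, as had 67.8% of the 6469 transcripts within a factor of 2 of NSDHL. The median SD of those near INSIG1 was 0.147 in high and 0.281 in low. INSIG1 stood at the 36.1 percentile of them in the high group and the 82.9 percentile in the low group. NSDHL was at the 82.5 percentile among transcripts of its own level in the high group and at the 97.6 percentile in the low group, where the median SD was 0.327. An excess of SD in the low group at least as large as that of INSIG1 was seen in 11.7% of transcripts near its level. For NSDHL that share was 2.27%.

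In every library INSIG1 was above NSDHL, but by a very uneven margin. The ratio of their FPKM was 7.60, 5.25 and 4.22 in high 1, 2 and 3, and 16.7, 3.68 and 19.2 in low 1, 2 and 3. The largest ratios were in low 1 and low 3, and NSDHL was low in both. INSIG1 was at its peak in low 1 and at its minimum in low 3. The mean within-library difference on the log2(FPKM + 1) scale was 2.73 ± 0.84 (SD, n = 6), above 0 in 6 of 6 libraries. An exact sign-flip permutation test (two-sided) gave p = 0.031, the smallest it can give with 6 libraries. The test concerns the inferred FPKM, and an error of quantification shared by all 6 libraries would not show in it. The within-library difference was not distinguishable between the groups (high minus low -0.73, exact permutation p = 0.4).

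The pair did not move together reliably across the 6 libraries. Pearson's r of log2(FPKM + 1) was 0.59 (two-sided exact permutation p = 0.217 over 720 pairings, adjusted p = 0.521 over 15 gene pairs). Spearman's rho was 0.14 (exact permutation p = 0.803, adjusted p = 1). The positive r rested on low 3, where both transcripts were at their lowest. Without low 3 it turned to -0.66, and without low 1, where INSIG1 was highest and NSDHL second lowest, it was 0.91. Leaving out both of these libraries, which are the farthest from the median of INSIG1, r was 0.056 over 4 libraries. Within a group 3 libraries are too few for a correlation. In the high group both were highest in high 3, while NSDHL was lowest in high 1 and INSIG1 in high 2. In the low group both were lowest in low 3, while INSIG1 was highest in low 1 and NSDHL in low 2. On deviations from the group means r was 0.53 over the 6 libraries (exact permutation p = 0.25, approximate for such deviations).

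**Figure D2:**
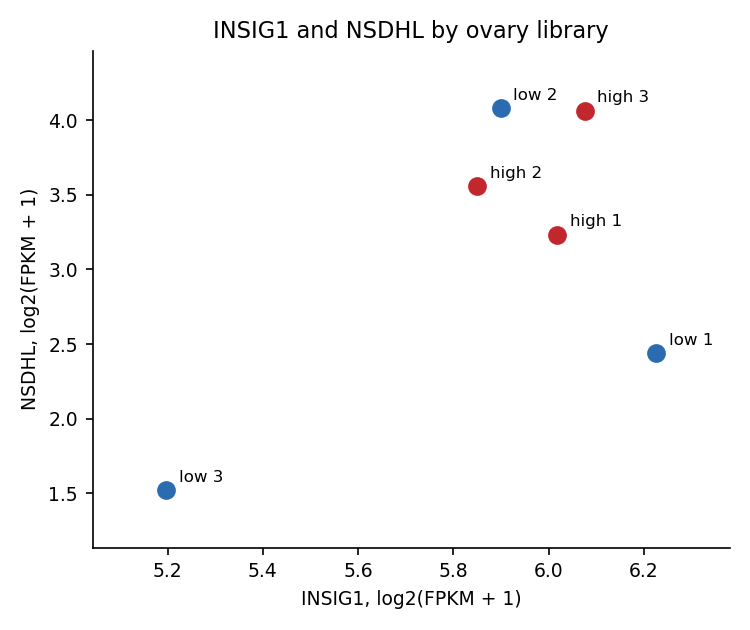
NSDHL against INSIG1 in each ovary library, both as log2(FPKM + 1), with high libraries in red and low libraries in blue. Low 3 lies alone at the lower left and low 1 at the right with a low NSDHL, and with low 3 removed Pearson's r changes from 0.59 to -0.66.

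Of 24 genes listed for sterol synthesis, DHCR7 was the only one besides NSDHL that could be named and tested. DHCR7, the reductase that makes cholesterol in the last step of one branch of the pathway, was at 11.2, 13.9 and 14.1 FPKM in the high libraries and 16.0, 12.4 and 10.2 FPKM in the low libraries. Like INSIG1 it was highest in low 1 and lowest in low 3, and the groups overlapped. Its log2 difference was 0.035 (SE 0.213), a sign that changed when each library was rescaled to the same sum (-0.063) and without high 2, high 3 or low 3. DHCR7 and INSIG1 had r = 0.77 (exact permutation p = 0.0597, adjusted p = 0.224, n = 6) and rho = 0.77 (exact permutation p = 0.103, adjusted p = 0.514), and without low 1 and low 3 r was -0.10. DHCR7 and NSDHL had r = 0.35 (exact permutation p = 0.475, adjusted p = 0.792) and rho = 0.26 (exact permutation p = 0.658, adjusted p = 0.988), with r = 0.55 without low 1 and low 3.

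Of the regulators around INSIG1, MBTPS2, the site-2 protease that helps to free SREBP from the membrane, was the other gene of 24 listed that could be tested. It was nearly level, at 4.18, 4.93 and 4.18 FPKM in high and 4.16, 5.07 and 5.07 FPKM in low libraries, a log2 difference of -0.086 (SE 0.211). Its small excursions ran against INSIG1, with r = -0.73 (exact permutation p = 0.0181, adjusted p = 0.167, n = 6) and rho = -0.94 (exact permutation p = 0.0167, adjusted p = 0.25). Without low 1 and low 3, r was -0.93. The relation did not pass the adjustment over 15 pairs, and it was -0.50 when each library was rescaled to the same sum.

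Genes that store, release or export cholesterol gave 5 tested members out of 31 listed. SOAT1, which esterifies cholesterol for storage, had its most abundant transcript, XM_013099292.1, at 28.7, 34.0 and 34.6 FPKM in high and 44.5, 41.1 and 36.9 FPKM in low libraries. Every high library was below every low library, the log2 difference was -0.32 (SE 0.152), and it was not called (limma adjusted p = 0.9998, unadjusted p = 0.0681). Its other 2 transcripts overlapped between the groups, at 15.9 to 19.9 against 18.1 to 33.3 FPKM and at 7.26 to 9.90 against 7.29 to 16.4 FPKM. Their log2 differences were also below 0, at -0.56 (SE 0.253, limma unadjusted p = 0.0589) and -0.35 (SE 0.293, limma unadjusted p = 0.267). Neither was called (limma adjusted p = 0.9998 for each). LIPA, the lysosomal lipase that frees cholesterol from its esters, was at 166 FPKM in high 1 and between 97.8 and 104 FPKM elsewhere, and its log2 difference of 0.20 (SE 0.219) turned to -0.047 without high 1. CH25H, which makes the oxysterol that strengthens INSIG binding to SCAP, was at 13.3, 6.75 and 8.12 against 5.83, 9.93 and 5.98 FPKM, a log2 difference of 0.32 (SE 0.307) that turned to -0.15 with the same array weights.

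The sterol sensor NR1H3 (LXR alpha) and ABCG1, a cholesterol exporter that LXR induces in mammals, were at their highest in low 3, the library in which INSIG1 and NSDHL were at their lowest. NR1H3 was at 18.0, 25.9 and 18.2 FPKM in high and 13.7, 14.9 and 36.4 FPKM in low libraries, with a log2 difference of 0.057 (SE 0.364). That sign changed on rescaling each library to the same sum (-0.040) and without high 2, low 1 or low 2. NR1H3 had another tested transcript, at 16.3, 16.0 and 18.7 FPKM in high and 12.5, 14.0 and 20.7 FPKM in low libraries. The relation of that transcript to INSIG1 was not tested. ABCG1 was at 10.2, 7.56 and 6.89 against 7.58, 8.94 and 15.1 FPKM, a log2 difference of -0.29 (SE 0.285).

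Against INSIG1, NR1H3 had r = -0.89 (exact permutation p = 0.0222, adjusted p = 0.167, n = 6) and rho = -0.77 (exact permutation p = 0.103, adjusted p = 0.514). ABCG1 had r = -0.86 with INSIG1 (exact permutation p = 0.0583, adjusted p = 0.224) and rho = -0.49 (exact permutation p = 0.356, adjusted p = 0.889). Without low 1 and low 3 these r were -0.39 and -0.070 over 4 libraries, and without low 3 alone they were -0.65 and -0.25. The r of NR1H3 with INSIG1 was -0.97 when each library was rescaled to the same sum, -0.96 on deviations from the group means and -0.83 with median centring. ABCG1 and NSDHL had r = -0.72 (exact permutation p = 0.0903, adjusted p = 0.271) and rho = -0.54 (exact permutation p = 0.297, adjusted p = 0.889). Their r was -0.067 once low 3 was left out, -0.92 without low 1 and -0.57 without low 1 and low 3. NR1H3 and NSDHL had r = -0.53 (exact permutation p = 0.269, adjusted p = 0.521). In all, 0 of 15 pairs had an adjusted p below 0.05.

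Outside sterol metabolism proper, FADS2, a fatty acid desaturase, was at 15.6, 25.2 and 14.6 against 27.2, 23.9 and 23.0 FPKM, a log2 difference of -0.44 (SE 0.228). SRD5A1, a steroid reductase, was at 7.44, 7.57 and 8.40 against 13.3, 7.47 and 4.72 FPKM, a log2 difference of -0.010 (SE 0.332) whose sign changed in several settings. Aromatase, CYP19A1, was at 40.3, 23.7 and 40.8 against 39.9, 25.6 and 12.8 FPKM, with its lowest value in low 3 as for INSIG1. Its log2 difference was 0.50 (SE 0.401), and it was 0.082 without low 3 and 0.87 without low 1.

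Over the 10 tested genes of the 5 sterol, lipid and steroid lists other than INSIG1 and NSDHL, limma called 0, with 0 at an unadjusted p below 0.05. Their log2 differences were above 0 for 5 and below 0 for 5, with a median of 0.012, where the median of all tested transcripts was -0.003. The groups did not overlap for 1 of the 10, SOAT1, beside the background share of 8.54%.

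**Figure D3:**
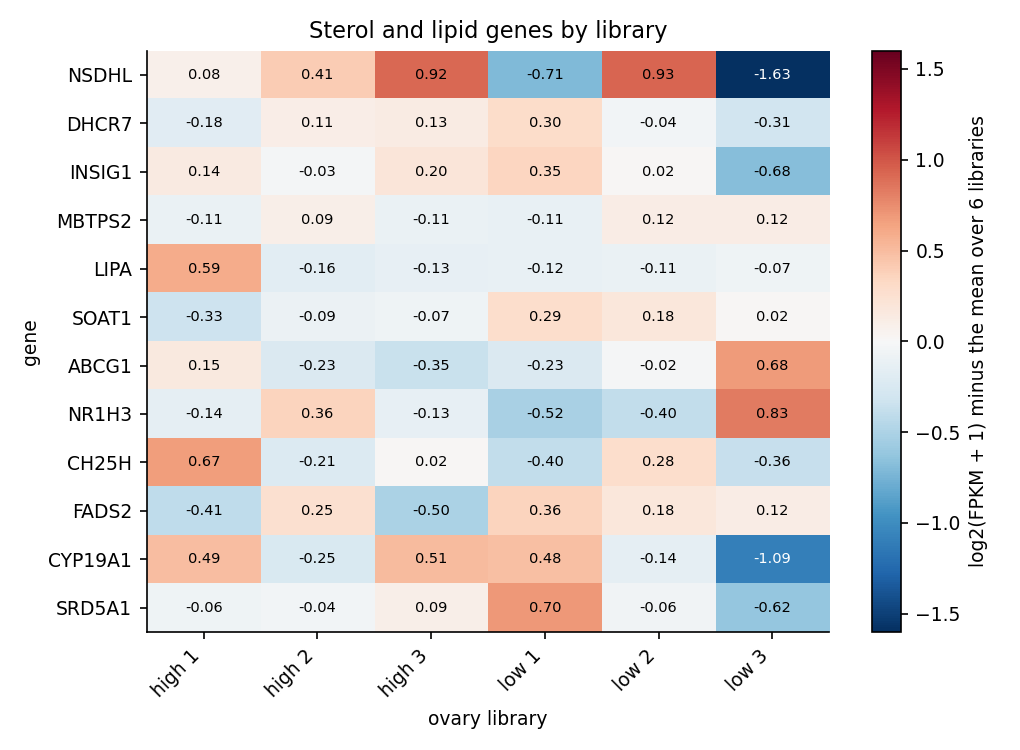
Deviation of each tested sterol, lipid and steroid gene from its own mean over the 6 libraries, on the log2(FPKM + 1) scale, with rows as genes and columns as libraries. The column of low 3 is blue for NSDHL, INSIG1, DHCR7, CH25H, CYP19A1 and SRD5A1 and red for NR1H3 and ABCG1, and the other genes are paler there. The NSDHL row holds the strongest colours.

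Because each library was made from ovary RNA, the markers of ovarian cell types were set beside the sterol genes. Which part of the ovary was taken is not known here. In bulk tissue a smaller number of cells of a type cannot be told apart from less RNA in each. The markers listed as granulosa, of which 3 of 10 were tested (CYP19A1, FSHR and FST), summed to between 75.2 and 97.2 FPKM in the high group and between 62.2 and 98.6 FPKM in the low group. The fourth that could be named, INHBA, was under 1 FPKM in all 6 libraries in both of its transcripts. In birds aromatase is expressed mainly in the theca layer, so the list is not a clean measure of granulosa cells. The mean log2 deviation of the 3 markers had r = 0.92 with INSIG1 (exact permutation p = 0.00417, adjusted p = 0.0917 over 22 relations, n = 6) and rho = 0.94 (exact permutation p = 0.0167). Without low 1 and low 3 r was 0.96, and it lay between 0.90 and 0.96 with any 1 library left out, but it did not pass the adjustment.

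The 3 markers differed in how they lay beside INSIG1. FSHR, the receptor of follicle-stimulating hormone, was at 15.3, 12.8 and 17.9 FPKM in high and 15.5, 18.6 and 16.2 FPKM in low libraries. FST, the activin antagonist follistatin, was at 28.7, 38.7 and 38.6 FPKM in high and 43.2, 28.9 and 33.2 FPKM in low libraries. Neither was at its lowest in low 3. CYP19A1 alone had r = 0.95 with INSIG1 (exact permutation p = 0.00833, adjusted p = 0.108 over 26 relations, n = 6) and rho = 0.83 (exact permutation p = 0.0583, adjusted p = 0.506). With CYP19A1 left out, a choice made after seeing the values, FSHR and FST together had r = 0.32 (exact permutation p = 0.586, adjusted p = 0.864) and rho = 0.43 (exact permutation p = 0.419, adjusted p = 0.949). The part of CYP19A1 in the INSIG1 values was not tested.

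Oocyte markers, 6 of 16 listed and all 6 at 6.02 FPKM or more in every library, summed to between 709 and 983 FPKM in the high group and between 421 in low 3 and 1147 in low 1. Their mean log2 deviation, not the sum, had r = 0.85 with INSIG1 (exact permutation p = 0.0681, adjusted p = 0.374) and rho = 0.49 (exact permutation p = 0.356). Without low 1 and low 3 r turned to -0.82. The smooth muscle marker ACTA2, 1 of 6 listed, was lowest in low 1 at 1154 FPKM and highest in low 3 at 2510 FPKM, with r = -0.85 against INSIG1 (exact permutation p = 0.025, adjusted p = 0.275) and rho = -0.83 (exact permutation p = 0.0583), and -0.72 without low 1 and low 3. MC2R, the only one of 8 theca and steroidogenic cell markers tested, was between 2.01 and 5.30 FPKM in 5 libraries and at 0.0776 FPKM in low 3. With INSIG1 it had r = 0.82 (exact permutation p = 0.0972, adjusted p = 0.428) and rho = 0.20 (exact permutation p = 0.714). Without low 1 and low 3 that r turned to -0.85. The single surface epithelium marker had r = 0.72 with INSIG1 (exact permutation p = 0.0681, adjusted p = 0.374), and 0.17 without low 1 and low 3. For the remaining lists r with INSIG1 ran from -0.51 for stromal fibroblast to 0.36 for adipocyte markers. The part of these markers in the INSIG1 values was not tested either.

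For NSDHL, r was taken with the mean log2 deviation of each of the 11 marker lists that could be measured. It ran from -0.41 for thrombocyte markers to 0.57 for MC2R, with exact permutation p-values of 0.229 or more. Stromal fibroblast markers, 5 of 8 tested, summed to between 781 and 1069 FPKM in high and between 520 and 850 FPKM in low libraries. Their mean log2 deviation had r = -0.090 with NSDHL. For leukocyte markers, 5 of 12 tested, r was 0.097. Endothelial markers, 5 of 7 tested, had r = 0.29. The single adipocyte, surface epithelium and oviduct gland markers gave -0.18, 0.40 and 0.15. Several of these values rested on low 1 and low 3. Without both, over the 4 libraries left, r was -0.88 for stromal, -0.96 for leukocyte and -0.33 for endothelial markers and -0.40 for MC2R, and these are given as a description. No listed erythrocyte gene could be named in the tables.

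**Figure D4:**
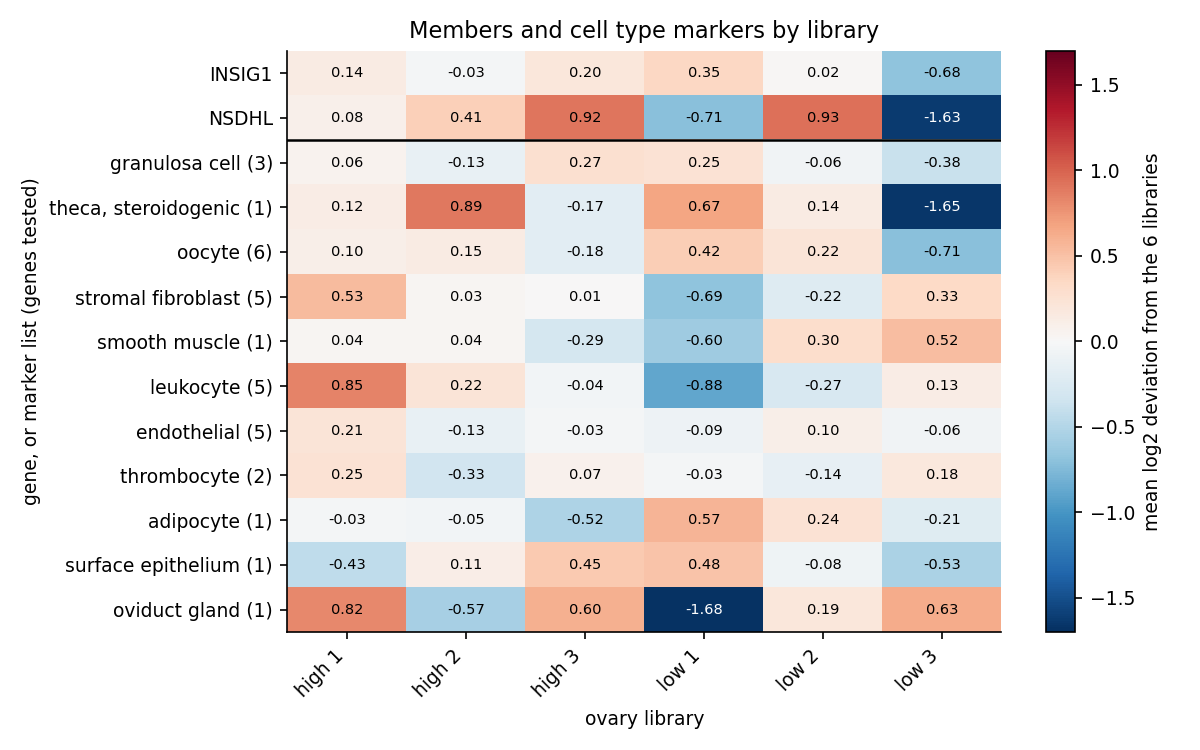
Deviation from the mean over 6 libraries of INSIG1, NSDHL and each cell type marker list (mean over its tested genes, whose number is in brackets), on the log2(FPKM + 1) scale, by library. The mean of the markers listed as granulosa is low in low 3 through CYP19A1, while FSHR and FST are not at their lowest there.

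The named transcripts most like INSIG1 across the 6 libraries formed a tight set. Among 1175 candidate genes with a mean of at least 5 FPKM, the highest r were 0.99 for GSKIP, a partner of the kinase GSK3B, 0.98 for KPNA2, an importin of nuclear transport, 0.98 for ALG5, which supplies glucose for N-glycosylation, and 0.97 for CHPF2, a chondroitin synthesis factor. GSKIP was at 65.3, 58.9 and 68.3 FPKM in high and 73.7, 58.3 and 42.8 FPKM in low libraries, almost the values of INSIG1 itself. KPNA2 was at 252, 220 and 230 FPKM in high and 315, 196 and 108 FPKM in low libraries. Without low 3 the r of these 4 genes ran from 0.81 for CHPF2 to 0.98 for GSKIP. They were picked for their likeness out of many candidates over few libraries, so r is a description: 72 candidates, or 6.13%, had an r above 0.9 with INSIG1, and the median r was 0.32.

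Fewer genes resembled NSDHL, with 5 candidates, or 0.426%, above 0.9 and a median r of 0.15. The 5 were RNF4, a ubiquitin ligase that acts on sumoylated proteins (0.94), the zinc finger gene ZNF341 (0.93), CEPT1, which makes phosphatidylcholine and phosphatidylethanolamine (0.93), CLEC3B, the gene of tetranectin (0.93), and the hyaluronidase gene HYAL2 (0.92). CLEC3B was at 459, 522 and 544 FPKM in high and 284, 474 and 272 FPKM in low libraries, with the same low pair as NSDHL. CEPT1 was at 16.6, 16.7 and 17.9 FPKM in high and 16.1, 19.8 and 11.6 FPKM in low libraries. None of these genes varied as widely as NSDHL, RNF4 for example ranging only from 24.7 to 29.4 FPKM. Their r with INSIG1 lay between 0.40 and 0.78, and the r of the INSIG1 set with NSDHL lay between 0.47 and 0.72. The named sets of INSIG1 and NSDHL shared no gene. With r = 0.59 between the members, a gene that close to 1 member cannot be as close to the other, so nothing follows from this.

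**Figure D5:**
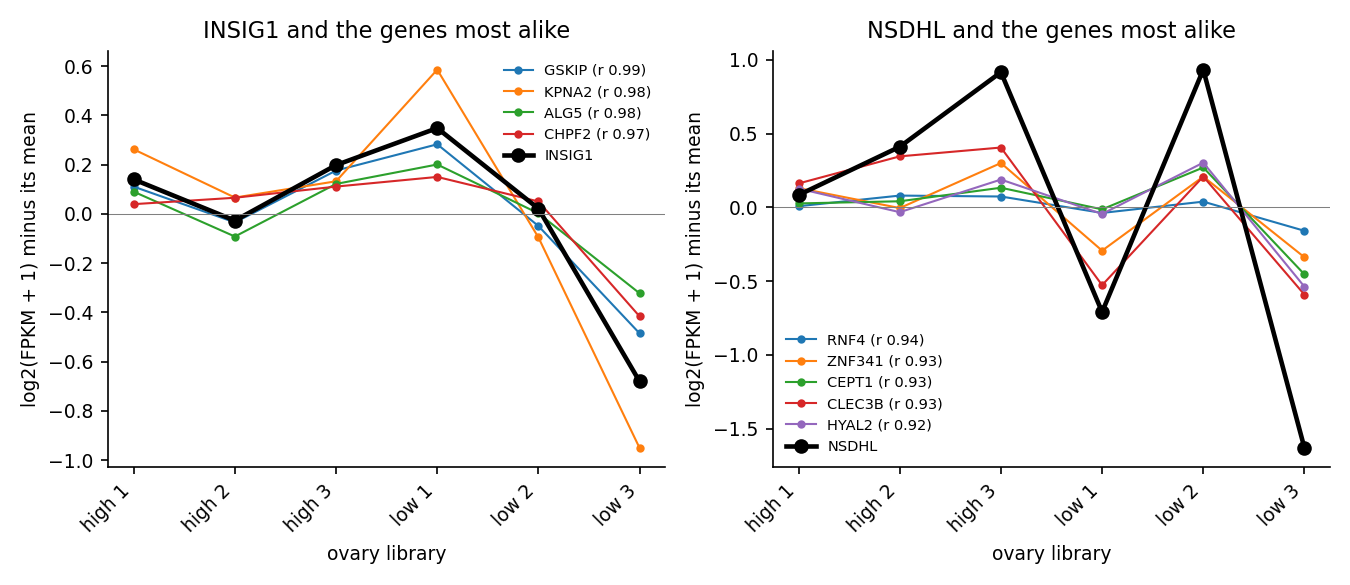
INSIG1 (left) and NSDHL (right) in black, each with the most alike named genes (4 and 5), as log2(FPKM + 1) minus each gene's mean over 6 libraries; lines join the values of a gene and imply no order of libraries. The INSIG1 set peaks in low 1 and dips in low 3. The NSDHL set dips in low 3, by less than NSDHL itself. In low 1 ZNF341 and CLEC3B dip clearly and RNF4, CEPT1 and HYAL2 only slightly.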

How the data were processed

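Ovary RNA was sequenced from stranded, polyadenylation-selected libraries, per the labels' protocols. Bowtie2 2.0.6 and TopHat2 2.0.9 are named in the submitters' processing notes. The quantification program, build and annotation are named neither there nor in the file headers. The deposited values carry no unit and were read as FPKM, since they were fractional and summed to different totals per library. Reads divided between similar transcripts by estimation can move values, and no common whole-read step was found when each other library was compared with high 1, so no count test was run and depth is unknown.

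Symbols came from a RefSeq table of a Pekin duck assembly by accession without version (4636 of 41952 transcripts matched, 3452 with a symbol, 2188 of them tested), and no coordinates were used. Transcripts with at least 1 FPKM in 3 or more libraries (19790) were fitted with limma-trend (limma 3.58.1, R 4.3.3) on log2(FPKM + 1), high against low, with Benjamini-Hochberg adjustment at 0.05, two-sided. This scale understates changes of low transcripts. The fit was tested on simulated data with the same spread in both groups, which does not cover the wider low group seen here. Correlations used exact permutation tests over libraries. Spreads used a permutation test on deviations from the group means, which is approximate. A gene in a list is represented by its most abundant tested transcript. Named genes were the members, the tested genes of 5 pathway lists and the 5 most alike genes of each member, of which 1 is not reported here. Alternatives were 2 other pseudocounts, 2 other filters, 3 other scalings, array weights, leaving out each library and, for the correlation, untransformed values and deviations from the group means. Leaving CYP19A1 out of the granulosa list was added after seeing the data. The members and lists were chosen with earlier results of these data known.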

Additional observations from a re-analysis of the deposited data

How the results depend on the processing

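Neither member was called under any alternative, and the mean level of INSIG1 was above that of NSDHL in the 9 alternatives run for it (3 settings and 6 libraries left out). The INSIG1 difference ran from -0.081 to 0.43 with 1 library left out. It was 0.11 with sums rescaled, a scaling that moved the median of all tested transcripts to -0.095, and 0.069 with array weights, whose estimation stopped before it converged and which gave low 2 a weight of 17.3 and the others 0.251 to 1.25. The NSDHL difference was -0.41 with array weights, 1.12 and 1.14 with pseudocounts of 0.1 and 0.01, and 0.36 to 1.64 with 1 library left out. Their correlation ran from -0.66 to 0.91 with 1 library left out and was 0.37 on untransformed FPKM. The r of INSIG1 with the granulosa list was 0.32 with CYP19A1 left out. The cause of these changes was not tested.

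The number of transcripts called was 0 with a pseudocount of 0.01, 0 with no filter, 2292 with array weights and 1 to 3 with 1 library left out. Small differences changed sign: DHCR7 was -0.063 with sums rescaled and -0.11 to 0.19 with 1 library left out, NR1H3 -0.040 and -0.19 to 0.49, and LIPA -0.047 to 0.33 with 1 left out. CH25H was -0.15 with array weights. SRD5A1 was 0.0011 and 0.0025 with pseudocounts of 0.1 and 0.01, 0.031 with median centring, 0.031 with quantile normalization, 0.045 with array weights and -0.33 to 0.34 with 1 library left out.

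No paired analysis was possible because the labels give the groups no shared replicate numbers. Transcripts were not summed by gene, as only 1 transcript of each member was recognised, so the values describe those transcripts and not whole genes. Only 3452 of 41952 transcripts had a symbol, and whether the others include transcripts of INSIG1 or NSDHL was not tested. With 3 libraries a group, the median SE of a log2 difference over all tested transcripts was 0.261. The SE was 0.258 for INSIG1 and 0.600 for NSDHL, whose difference is thus known far less precisely.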
